A study of Mus musculus with 36 samples.

Results

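Gastrocnemius muscle collected at zeitgeber time (ZT) 8, in the light phase, was compared between mice with a deletion of Bmal1 in the liver (Bmal1hep-/-) and wild-type (WT) mice. The comparison rests on 6 libraries, 3 Bmal1hep-/- and 3 WT, taken by their genotype and time labels out of 36 libraries that cover both genotypes at ZT0, 4, 8, 12, 16 and 20. Each library is polyadenylated RNA of whole muscle, and the labels call the 3 libraries of a group biological replicates. They do not say whether these came from separate mice, so the p-values measure the spread between libraries of the same group. This spread was estimated for each gene from all 12 groups together. The Cre driver or promoter behind the deletion, the strain, the age, the sex and the feeding of the mice are stated in none of the sources used here. The title of the series concerns the effect of the liver clock on rhythms and mitochondrial function in skeletal muscle. Of 24319 gene symbols in the deposited table, the 10837 with a mean of at least 1 FPKM (fragments per kilobase of transcript, scaled to the mapped reads) over the 36 libraries were tested. Differences are given as Bmal1hep-/- minus WT on the scale of log2(FPKM + 1), which understates the change of genes with low levels, with the standard error (SE) of limma. Values of 3 libraries are in the order of replicates 1, 2 and 3.

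The circadian clock is a feedback loop in which BMAL1 and CLOCK bind E-box sequences and activate the Period, Cryptochrome and REV-ERB genes, whose proteins repress BMAL1 and CLOCK or their genes. Most tissues hold their own clock, and the liver clock adds daily cycles of glucose, bile acids, lipids and secreted proteins to the blood that other organs receive. In skeletal muscle the local clock shapes fuel choice between glucose and fat, and mitochondrial genes, protein turnover and glucocorticoid responses also follow the day. At ZT8, Arntl, the gene that encodes BMAL1, is near its trough in muscle, while outputs such as Dbp are near their peak.

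The E-box CACGTG, on which BMAL1 and CLOCK act, reads the same on both strands. Of 16 clock genes with a promoter in RefSeq (GRCm38.p6, windows of 300 bases around the start of the transcript), 5 held it: Per1, Cry1, Bhlhe41, Ciart and Tef. Over all genes with a promoter there, 8.09% held it, and 12.3% of the 8323 tested genes with a promoter. The D-box TTATGTAA, on which DBP, TEF, HLF and NFIL3 act, was searched on both strands and lay in 1.11% of all genes and in 1 of the 16 clock genes, Per3. The promoters of Ciart and Per1 are shown for their E-boxes and that of Per3 for its D-box, with the motifs in capitals and each read 5′ to 3′ along the gene.
Ciart, chr3:95882179-95882478, minus strand: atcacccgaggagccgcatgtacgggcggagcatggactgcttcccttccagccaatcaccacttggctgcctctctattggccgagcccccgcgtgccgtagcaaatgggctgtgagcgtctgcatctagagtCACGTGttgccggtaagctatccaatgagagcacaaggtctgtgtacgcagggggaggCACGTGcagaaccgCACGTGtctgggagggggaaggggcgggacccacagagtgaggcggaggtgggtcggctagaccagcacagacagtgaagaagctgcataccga
Per1, chr11:69098699-69098998, plus strand: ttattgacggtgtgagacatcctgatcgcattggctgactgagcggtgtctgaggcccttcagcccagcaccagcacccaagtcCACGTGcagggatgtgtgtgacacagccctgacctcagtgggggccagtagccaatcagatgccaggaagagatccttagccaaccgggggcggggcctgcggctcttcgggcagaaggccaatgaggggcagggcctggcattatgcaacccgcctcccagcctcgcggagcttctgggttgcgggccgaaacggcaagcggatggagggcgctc
Per3, chr4:151044616-151044915, minus strand: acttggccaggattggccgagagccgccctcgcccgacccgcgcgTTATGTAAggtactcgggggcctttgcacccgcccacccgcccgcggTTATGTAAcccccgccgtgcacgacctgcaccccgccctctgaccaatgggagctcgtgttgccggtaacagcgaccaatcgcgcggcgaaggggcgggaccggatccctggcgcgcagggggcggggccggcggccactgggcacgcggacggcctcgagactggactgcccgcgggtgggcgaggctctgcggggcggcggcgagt
A match is a description of the letters in these windows. The tested genes with an E-box had a median difference at ZT8 of -0.016, against -0.014 for all tested genes with a promoter, and 26 of 1026 (2.53%) had an unadjusted p under 0.05, where 3.08% of all tested genes did.

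Some of the 6 libraries stood apart before any comparison. WT replicate 3 held mRNAs of hepatocytes and WT replicate 2 held mRNAs of the exocrine pancreas, as described with the other cell types. In Bmal1hep-/- replicate 1 levels increased with transcript length across genes (Spearman's rho 0.405, as a deviation from the mean of all libraries), and in Bmal1hep-/- replicate 2 they decreased (-0.449), while Bmal1hep-/- replicate 3 had 0.217 and the WT libraries had 0.178, -0.094 and -0.252. The spread between replicates was larger in Bmal1hep-/- muscle, with a median SD per gene of 0.222, against 0.117 in WT muscle on the log2 scale, and 8215 genes (75.8%) had the larger SD in Bmal1hep-/- muscle. The number of reads behind each library is not known. The steps between low values put the depth of the 6 libraries at 61.2% to 87.2% of the deepest of the 36, and their FPKM sums ran from 579728 to 758501. Muscle fibre markers were abundant in all 6, with summed levels of 88307, 118589 and 93251 FPKM in Bmal1hep-/- muscle and 82548, 111107 and 99739 FPKM in WT muscle. The deletion lies in the liver, no liver sample was analysed here, and the Arntl level of muscle is no check of it.

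The levels of clock genes in muscle at ZT8 overlapped between the genotypes for 16 of 18 tested genes. Arntl stood at 4.8996, 2.43 and 3.68 FPKM in Bmal1hep-/- muscle and 2.83, 3.33 and 2.43 FPKM in WT muscle. The highest value was in Bmal1hep-/- replicate 1 and the lowest values, in Bmal1hep-/- replicate 2 and WT replicate 3, were alike, so the groups overlapped, with a difference of 0.25 ± 0.16 (95% interval -0.090 to 0.58). Clock, the partner of BMAL1, followed the same order of libraries within Bmal1hep-/- muscle, at 5.08, 2.43 and 4.22 FPKM in Bmal1hep-/- muscle and 3.81, 3.32 and 3.02 FPKM in WT muscle. Over the day Arntl averaged 18.01 ± 0.304, 8.83 ± 1.55, 3.67 ± 1.23 and 1.87 ± 0.373 FPKM (SD, n = 3 each) in Bmal1hep-/- muscle at ZT0, 4, 8 and 12, against 16.1 ± 1.35, 11.5 ± 2.64, 2.86 ± 0.450 and 2.05 ± 0.220 FPKM in WT muscle. At ZT8 both genotypes were thus on the falling side of its day.

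**Figure D1:**
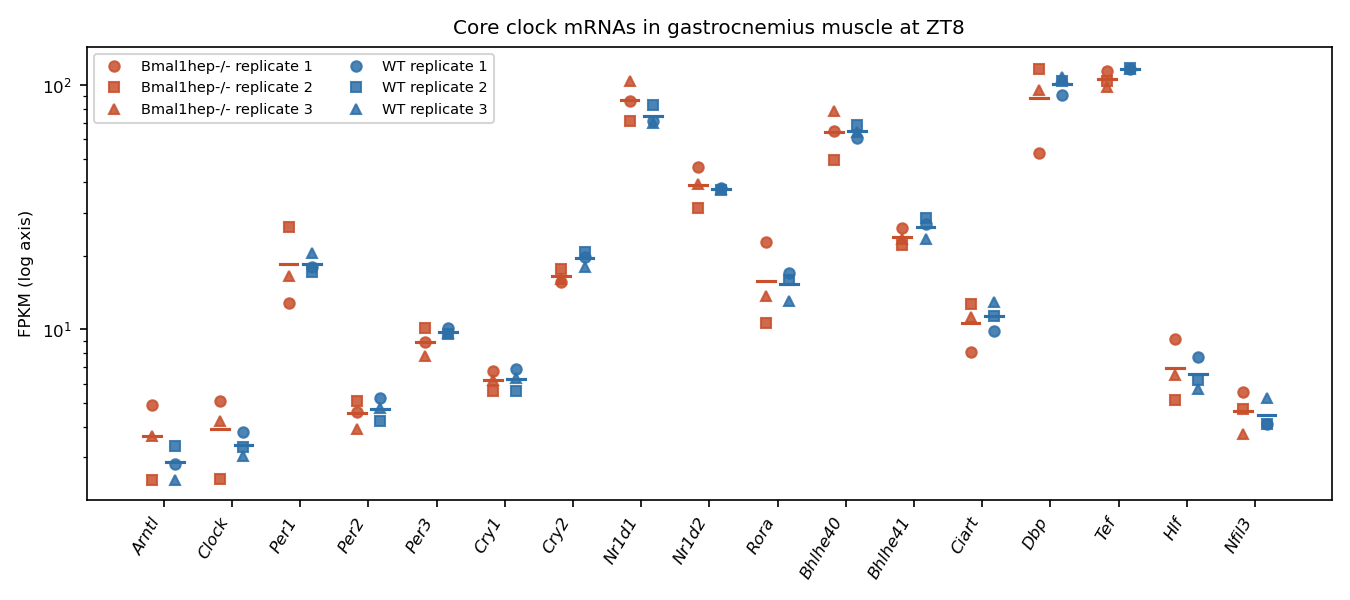
FPKM (log axis) of 17 of the 18 tested core clock genes in the 6 libraries of ZT8, with Bmal1hep-/- in red and WT in blue, 1 symbol per replicate and a bar at each group mean. The groups overlap for all genes plotted but Cry2 and Tef, whose Bmal1hep-/- values lie below the WT values.

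Among the repressors, Cry2, a cryptochrome that inhibits BMAL1 and CLOCK, had 15.7, 17.7 and 16.1 FPKM in Bmal1hep-/- muscle, against 19.8, 20.8 and 18.1 FPKM in WT muscle. All 3 Bmal1hep-/- values lay below the WT values, and the difference was -0.23 ± 0.11 (95% interval -0.46 to -0.0062, adjusted p = 0.9997). It was the only clock gene with an unadjusted p under 0.05. At the neighbouring times, measured in other libraries, its differences were -0.066 at ZT4 and 0.11 at ZT12, and the ZT8 difference minus the mean of the other 5 times was -0.27 ± 0.12. Cry1 stood at 6.77, 5.62 and 6.197 FPKM in Bmal1hep-/- muscle and 6.901, 5.58 and 6.36 FPKM in WT muscle, with overlap and a difference of -0.016 ± 0.12.

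The period genes showed no separation of genotypes at this time. Per1, which light, feeding and glucocorticoids also induce, stood at 12.8, 26.3 and 16.5 FPKM in Bmal1hep-/- muscle and 17.99, 17.2 and 20.5 FPKM in WT muscle. The lowest and the highest of the 6 values were both in Bmal1hep-/- muscle. Per2 had 4.58, 5.102 and 3.92 FPKM in Bmal1hep-/- muscle and 5.26, 4.21 and 4.77 FPKM in WT muscle, and Per3 had 8.85, 10.1 and 7.77 FPKM in Bmal1hep-/- muscle and 10.1, 9.59 and 9.66 FPKM in WT muscle. Their differences were -0.057 ± 0.20, -0.056 ± 0.18 and -0.13 ± 0.14 in that order, each smaller than its SE or about its size.

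The nuclear receptors that act on the Arntl promoter overlapped between genotypes. Nr1d1, which encodes the repressor REV-ERBα and had its highest group means at ZT4 in both genotypes, stood at 86.03, 70.97 and 104 FPKM in Bmal1hep-/- muscle and 71.1, 82.4 and 70.1 FPKM in WT muscle and differed by 0.21 ± 0.17 (95% interval -0.13 to 0.55). Nr1d2, its paralog, had 46.1, 31.3 and 39.4 FPKM in Bmal1hep-/- muscle and 37.7, 37.05 and 37.5 FPKM in WT muscle. WT replicates lay closely together for Nr1d2 while the Bmal1hep-/- replicates lay on both sides of them. Rora, an activator, had 22.9, 10.7 and 13.7 FPKM in Bmal1hep-/- muscle and 16.98, 15.9 and 13.04 FPKM in WT muscle. The E-box repressors Bhlhe40 and Bhlhe41 differed by -0.034 ± 0.16 and -0.13 ± 0.13, and Ciart, which encodes the repressor CHRONO, by -0.10 ± 0.22.

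**Figure D2:**
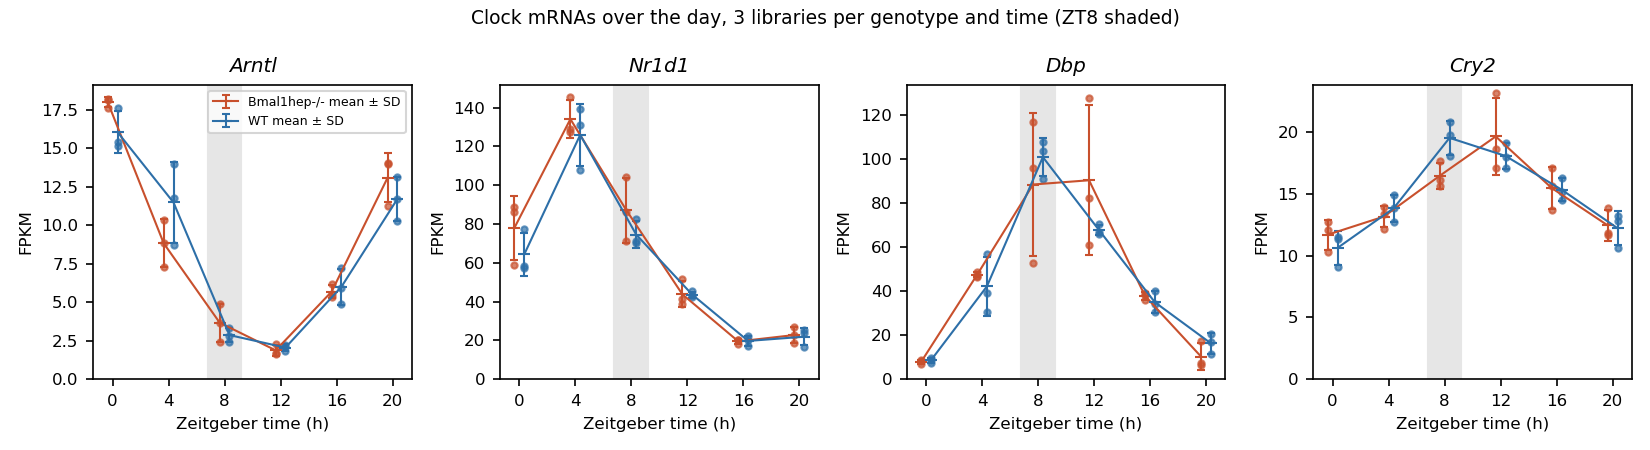
FPKM of Arntl, Nr1d1, Dbp and Cry2 against zeitgeber time (h) in Bmal1hep-/- (red) and WT (blue) muscle, with points for libraries, lines through group means and bars of 1 SD (n = 3), and ZT8 shaded. At ZT8 the groups overlap for Arntl, Nr1d1 and Dbp, and the Cry2 means are 16.5 in Bmal1hep-/- and 19.6 FPKM in WT muscle.

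The D-box factors carry the output of the clock to metabolic genes. Dbp, an activator, stood at 52.6, 116 and 95.6 FPKM in Bmal1hep-/- muscle and 90.9, 104 and 108 FPKM in WT muscle. Bmal1hep-/- replicate 1 had the lowest value of the 6 and Bmal1hep-/- replicate 2 the highest, and the difference was -0.26 ± 0.28 (95% interval -0.84 to 0.32). Without Bmal1hep-/- replicate 1 it was 0.071. Tef had 114, 104 and 97.998 FPKM in Bmal1hep-/- muscle, against 116, 118 and 116 FPKM in WT muscle, so that the groups did not overlap, with a difference of -0.15 ± 0.095. Hlf had a difference of 0.049 ± 0.19, and Nfil3, the repressor that competes for the D-box, of 0.040 ± 0.17.

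Over the core clock list 18 of 19 genes were tested (Npas2 was below the level filter), 12 had negative and 6 had positive differences, and the median was -0.045, against -0.012 over all genes tested. limma called 0 of the 18 at an adjusted p under 0.05, as it did for all genes (0%). At an unadjusted p under 0.05, 1 (Cry2) was lower, where 2.17% of all tested genes were. Groups did not overlap for 2 of 18, both lower in Bmal1hep-/-, where 4.13% of all tested genes were lower without overlap. The widest 95% interval of the members shown with one, that of Dbp, reached to a difference of -0.84. A difference of that size was thus within the error for Dbp, while the other intervals shown were narrower. Of the clock-controlled genes common to many tissues, 11 were tested and 0 had an unadjusted p under 0.05. Coq10b, of coenzyme Q function, had 19.97, 13.3 and 17.2 FPKM in Bmal1hep-/- muscle and 11.6, 14.1 and 14.7 FPKM in WT muscle (difference 0.29 ± 0.19). Pik3ip1, an inhibitor of PI3 kinase, had 22.6, 26.3 and 19.8 FPKM in Bmal1hep-/- muscle and 25.6, 32.7 and 26.4 FPKM in WT muscle (-0.29 ± 0.16).

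The whole table was compared next, which addresses whether muscle at ZT8 holds transcripts that differ when the liver lacks Bmal1. limma called 0 of 10837 genes at an adjusted p under 0.05 (0%), and the smallest adjusted p was 0.9997. At an unadjusted p under 0.05 there were 334 genes (3.08%), 99 higher (0.914%) and 235 lower (2.17%) in Bmal1hep-/- muscle, where a threshold of 0.05 alone would give 541.85. Without Bmal1hep-/- replicate 2 there were 1119 such genes, still with 0 called. Groups did not overlap for 261 genes higher (2.41%) and 448 lower (4.13%) in Bmal1hep-/- muscle, 709 in all (6.54%). Differences were positive for 4984 genes (46%) and negative for 5853 (54%). The 95% interval of a gene extended by 0.297 (log2, median over genes) above and below its difference. The whole interval lay within 0.5 of 0 for 7802 genes (72.0%) and within 1 of 0 for 10395 genes (95.9%).

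The test of the ZT8 difference against the mean difference of the other 5 times called 0 genes in limma as well (smallest adjusted p 0.99999), with 81 higher (0.747%) and 180 lower (1.66%) at an unadjusted p under 0.05. Against the mean of ZT4 and ZT12 alone it called 0 genes (smallest adjusted p 0.871, 445 genes at an unadjusted p under 0.05). The differences named in the following are therefore values and not changes. They were taken by a rule of smallest p or of groups without overlap, and the adjusted p of each in limma was at least 0.9997.

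Of the 10 genes of smallest p in the test against the other times, Gstm2, a glutathione transferase, had 34.8, 44.6 and 45.2 FPKM in Bmal1hep-/- muscle, against 53.2, 65.6 and 58.4 FPKM in WT muscle at ZT8. The groups did not overlap, and the ZT8 difference minus the mean of the other 5 was -0.53 ± 0.17. H2-T22, a non-classical MHC class I gene with close paralogs that may share its reads, had 3.23, 2.26 and 2.42 FPKM in Bmal1hep-/- muscle, against 5.71, 5.75 and 2.72 FPKM in WT muscle and overlapped (-0.75 ± 0.24 against the other times). Tmem8b, a membrane protein, had 8.74, 6.53 and 8.68 FPKM in Bmal1hep-/- muscle, against 6.77, 5.704 and 6.91 FPKM in WT muscle (0.45 ± 0.13 against the other times, the smallest p of this test). Manbal was lower by value at ZT8 relative to the other times (-0.48 ± 0.15), Zfp955a, a zinc finger gene, and Zdhhc23, a palmitoyltransferase, were higher (0.44 ± 0.14 and 0.88 ± 0.28), and Faim, Fam32a, Vsig2 and Gzmm completed the 10.

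**Figure D3:**
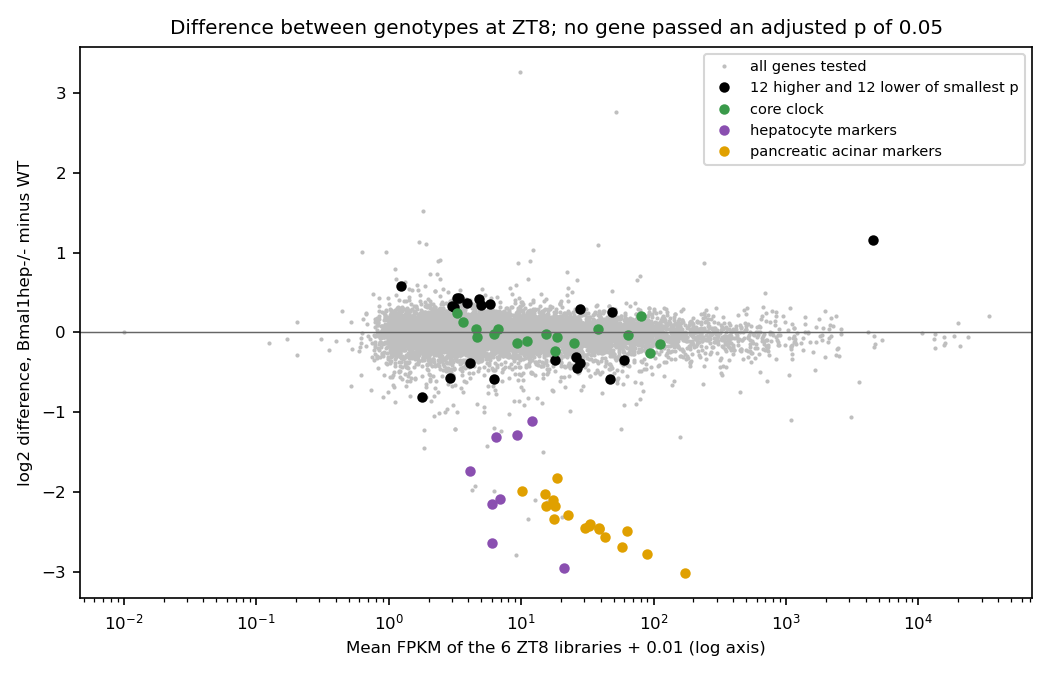
Difference between Bmal1hep-/- and WT at ZT8 (log2 scale) against the mean FPKM of the 6 libraries plus 0.01 (log axis) for the 10837 tested genes, with the 24 genes of smallest p, the same 17 core clock genes as in the plot of clock genes at ZT8, hepatocyte markers and pancreatic acinar markers in colour (hepatocyte markers among the 24 are drawn as such). Most genes lie within 0.5 of 0, while the tested hepatocyte and pancreatic markers lie below -1.

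Grpel1, Me3 and Mrps14, whose proteins act in mitochondria, were among the 12 lower genes of smallest p. The share of mitochondrial genes among all tested genes was not counted. Grpel1, the nucleotide exchange factor of the mitochondrial HSP70 that imports proteins, had 16.7, 15.4 and 15.2 FPKM in Bmal1hep-/- muscle, against 19.1, 19.5 and 22.7 FPKM in WT muscle. The groups did not overlap, and the difference was -0.35 ± 0.089. Me3, the mitochondrial NADP-dependent malic enzyme, had 16.7, 25.1 and 25.02 FPKM in Bmal1hep-/- muscle, against 31.01, 29.6 and 30.03 FPKM in WT muscle, again without overlap (-0.45 ± 0.13). Mrps14, of the small subunit of the mitochondrial ribosome, had 19.9, 27.03 and 25.003 FPKM in Bmal1hep-/- muscle, against 30.3, 31.9 and 32.1 FPKM in WT muscle (-0.39 ± 0.10). For Me3 and Mrps14 the lowest value was in Bmal1hep-/- replicate 1, the library whose levels increased most with transcript length. With the trend on length removed from each library the differences were -0.46 for Me3 and -0.39 for Mrps14. At ZT4 and ZT12 the differences were -0.20 and 0.063 for Grpel1, -0.098 and -0.081 for Me3, and -0.14 and -0.036 for Mrps14.

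The smallest p of all 10837 genes was that of Fam32a, a gene linked to apoptosis, with 5.22, 4.02 and 5.21 FPKM in Bmal1hep-/- muscle, against 7.82, 6.78 and 8.53 FPKM in WT muscle. Each Bmal1hep-/- value was below each WT value, and the difference was -0.58 ± 0.13 (95% interval -0.86 to -0.31). Faim, an inhibitor of FAS-induced apoptosis, had 0.473, 1.42 and 1.24 FPKM in Bmal1hep-/- muscle, against 2.3003, 2.45 and 2.76 FPKM in WT muscle, a difference of -0.81 ± 0.23, and differed from the mean of the other times by -0.89 ± 0.26. Its difference was 0.53 at ZT4 and -0.32 at ZT12. Tceb1, which encodes elongin C of transcription elongation and ubiquitin ligase complexes, had 60.3, 47.4 and 49.7 FPKM in Bmal1hep-/- muscle, against 65.2, 68.1 and 66.02 FPKM in WT muscle (-0.34 ± 0.097). Gzmm, a granzyme of cytotoxic lymphocytes, and Clec2d, a ligand of natural killer cell receptors, differed by -0.57 ± 0.16 and -0.59 ± 0.18, both without overlap. The other lower genes of the rule were Znhit6 (-0.38), which acts in box C/D snoRNP assembly, the serine protease Prss23 (-0.30), and the liver genes Alb and Mup3.

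The 12 higher genes of smallest p are given next. Gabpb1, a subunit of the transcription factor GABP (nuclear respiratory factor 2), which drives nuclear genes of mitochondria, had 4.22, 3.56 and 4.31 FPKM in Bmal1hep-/- muscle, against 2.29, 2.805 and 3.09 FPKM in WT muscle. The groups did not overlap, with a difference of 0.43 ± 0.13 (95% interval 0.17 to 0.70), and differences of 0.061 at ZT4 and -0.26 at ZT12. Kdm2b, a histone demethylase of a Polycomb complex, had 7.98, 5.74 and 6.21 FPKM in Bmal1hep-/- muscle, against 5.01, 5.25 and 4.57 FPKM in WT muscle (0.35 ± 0.12). Tada1 of the SAGA complex and Taf4a of TFIID differed by 0.43 ± 0.13 and 0.33 ± 0.12. Tsc22d1, of the TSC22 family of regulators, had 56.1, 55.9 and 47.4 FPKM in Bmal1hep-/- muscle, against 44.9, 42.5 and 45.3 FPKM in WT muscle (0.26 ± 0.090). The membrane protein Vsig2 had the smallest p of the higher genes, with 2.09, 1.54 and 1.402 FPKM in Bmal1hep-/- muscle, against 0.805, 0.623 and 0.921 FPKM in WT muscle (0.58 ± 0.17). Prob1 (0.29), Cluap1 of intraflagellar transport (0.35), Rufy3 (0.33), Rbm48 of minor intron splicing (0.37) and Zcchc10 (0.42) completed the rule with Rn45s.

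Rn45s, the precursor of ribosomal RNA, had 2508, 12527 and 4807 FPKM in Bmal1hep-/- muscle, against 2638, 2078 and 2487 FPKM in WT muscle. The 2 highest values were in Bmal1hep-/- replicates 2 and 3, while Bmal1hep-/- replicate 1 lay among the WT values. The libraries were made from polyadenylated RNA, and the part of this ribosomal RNA in other values was not tested. Its difference was 1.16 ± 0.40, and it was 0.54 without Bmal1hep-/- replicate 2 and 1.70 without Bmal1hep-/- replicate 1.

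Of genes whose groups did not overlap and whose unadjusted p was under 0.05, the largest positive differences included those of Gadd45g and Ier2. Gadd45g, a growth arrest and DNA damage response gene, had 77.4, 132 and 71.5 FPKM in Bmal1hep-/- muscle, against 54.7, 60.1 and 55.9 FPKM in WT muscle, with Bmal1hep-/- replicate 2 the highest (0.65 ± 0.27). Ier2, an immediate early gene, had 10.3, 11.3 and 8.43 FPKM in Bmal1hep-/- muscle, against 5.34, 7.69 and 6.39 FPKM in WT muscle (0.56 ± 0.25). Over the immediate early genes 6 of 13 had positive differences, where 46% of all tested genes did, and the list as a whole stood near 0 (median -0.015). Ier2 was the only one with an unadjusted p under 0.05, where 0.914% of all tested genes were higher at that threshold. Slc26a10, of a family of anion transporters, differed by 0.68 ± 0.30.

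Snrpn led the higher and Snurf the lower genes of this rule. Snrpn stood at 25.4, 30.5 and 29.4 FPKM in Bmal1hep-/- muscle, against 15.95, 16.99 and 16.1 FPKM in WT muscle, and Snurf at 4.79, 1.19 and 0.221 FPKM in Bmal1hep-/- muscle, against 15.8, 16.9 and 15.9 FPKM in WT muscle. The signs were opposite, 0.76 ± 0.29 for Snrpn and -2.79 ± 1.15 for Snurf. Both are read from 1 shared transcript, so the reads can be assigned to either name, and these values are uncertain. The largest absolute difference of the table, 3.26 ± 1.40, was that of Oaz1-ps, chosen after its values were seen, a pseudogene of Oaz1 whose reads can likewise be split: it was at 23.1, 0.00341 and 36.1 FPKM in Bmal1hep-/- muscle and below 0.01 FPKM in all WT libraries.

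The subunits of the respiratory chain had medians slightly below 0 and a wide spread within Bmal1hep-/- muscle. Complex I subunits had a median difference of -0.065 (24 of 36 negative), complexes II and III -0.10 (8 of 13), complex IV -0.16 (8 of 13) and ATP synthase -0.036 (13 of 17), against -0.012 over all genes. Of these 79 genes only Cox7b, a subunit of complex IV, had an unadjusted p under 0.05, where 3.08% of all tested genes did. All tested genes were negative in 54% of cases. As deviations from the mean of the 6 libraries, the median of complex I subunits was -0.36, 0.39 and -0.060 in Bmal1hep-/- muscle and -0.084, 0.036 and 0.13 in WT muscle. That of complex IV was -0.47, 0.45 and -0.076 in Bmal1hep-/- muscle and -0.050, 0.064 and 0.19 in WT muscle. Bmal1hep-/- replicates 1 and 2 were thus the lowest and the highest of the 6 libraries, and the WT libraries lay between them. Without Bmal1hep-/- replicate 1 the medians were 0.072 for complex I and 0.078 for complex IV, and without Bmal1hep-/- replicate 2 they were -0.23 and -0.39. Leaving out WT replicates 2 and 3, chosen after seeing the data, also gave positive medians, 0.037 for complex I and 0.036 for complex IV. With a trend on transcript length removed from each library they were -0.032 and -0.065.

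Single subunits with lower values had the same order of libraries within Bmal1hep-/- muscle, replicate 1 the lowest and replicate 2 the highest. Cox7b had 230.4, 324 and 252 FPKM in Bmal1hep-/- muscle, against 387, 369 and 395 FPKM in WT muscle, without overlap, and a difference of -0.53 ± 0.17 (95% interval -0.88 to -0.18). Cox8b, the muscle form of subunit 8, ran from the lowest to the highest value within Bmal1hep-/- muscle, at 814, 5581 and 3419 FPKM, against 3134, 3954 and 4539 FPKM in WT muscle (-0.62 ± 0.50). Atp5k, a small subunit of ATP synthase, had 343, 5683 and 2222 FPKM in Bmal1hep-/- muscle, against 2631, 3752 and 3953 FPKM in WT muscle, so that the Bmal1hep-/- replicates lay on both sides of the WT replicates, and the difference was -1.06 ± 0.87 (95% interval -2.84 to 0.73). Ndufa1 of complex I had 137, 493 and 237 FPKM in Bmal1hep-/- muscle, against 296, 379.7 and 409.7 FPKM in WT muscle (-0.50 ± 0.39), and differences were -0.41 ± 0.28 for Ndufb11 of complex I and -0.53 ± 0.46 for Uqcr11 of complex III. Other subunits had positive values: Ndufb4 differed by 0.27 ± 0.16, Cox6c by 0.26 ± 0.17 and Atp5h by 0.25 ± 0.16.

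**Figure D4:**
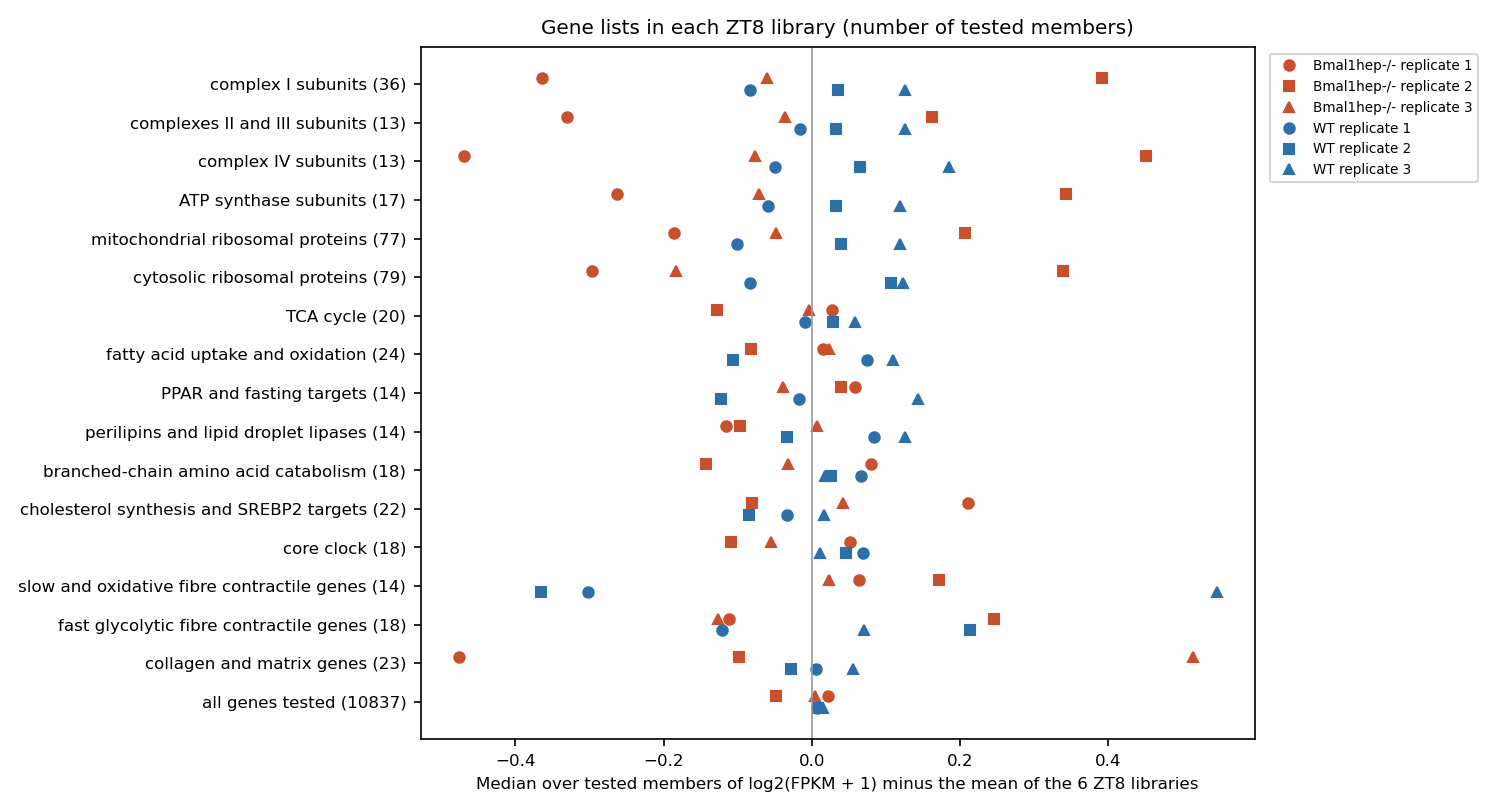
Median over the tested members of 16 gene lists, and over all genes, of log2(FPKM + 1) minus the mean of the 6 ZT8 libraries, with Bmal1hep-/- in red above WT in blue and 1 symbol per replicate. Bmal1hep-/- replicates 1 and 2 are at opposite ends for the respiratory complexes and both kinds of ribosomal proteins, with the WT libraries between them.

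Ribosomal protein genes, most of them short and highly expressed, had the same order of libraries. Of 79 tested genes of the cytosolic ribosome 60 had negative differences (54% of all tested genes did), with a median of -0.10, and 8 had an unadjusted p under 0.05, all lower, where 2.17% of all genes were. Per library the median was -0.30, 0.34 and -0.18 in Bmal1hep-/- muscle and -0.083, 0.11 and 0.12 in WT muscle. Rpl15 had 152, 187 and 156 FPKM in Bmal1hep-/- muscle, against 207, 212 and 222 FPKM in WT muscle, with Bmal1hep-/- below WT throughout (-0.37 ± 0.12). Rpl21 had 109.5, 154 and 126 FPKM in Bmal1hep-/- muscle, against 160.1, 165 and 161 FPKM in WT muscle (-0.33 ± 0.14). Rps29, of the small subunit, had 309, 1471 and 598 FPKM in Bmal1hep-/- muscle, against 1248, 1438 and 1481 FPKM in WT muscle and so overlapped (-1.10 ± 0.48). Without Bmal1hep-/- replicate 1 the list's median was 0.035, without Bmal1hep-/- replicate 2 it was -0.29, without WT replicate 1 it was -0.18, and with the length trend removed it was -0.040. At ZT4 and ZT12 it was 0.128 and 0.348. Families of this kind have many processed pseudogenes, and reads shared with them could be split.

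Mitochondrial ribosomal proteins had a median of -0.046, with 45 of 77 negative (54% of all tested genes were). At an unadjusted p under 0.05 there were 1 higher and 2 lower, where 0.914% and 2.17% of all tested genes were. The lower ones were Mrps14 and Mrpl57, the higher one Mrps22. Mrps22 had 15.9, 13.5 and 14.7 FPKM in Bmal1hep-/- muscle, against 11.6, 12.1 and 14.4 FPKM in WT muscle (0.20 ± 0.091), and Mrpl57 had 9.64, 14.6 and 11.3 FPKM in Bmal1hep-/- muscle, against 12.98, 16.3 and 16.6 FPKM in WT muscle (-0.36 ± 0.15). The list had a median of 0.039 without Bmal1hep-/- replicate 1 and 0.032 without WT replicate 3.

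Fuel metabolism was compared by pathway. Genes of fatty acid uptake and oxidation, which supply resting muscle with fat, had negative differences in 17 of 24 cases (54% of all tested genes). Their median was -0.028, and 0 of 24 had an unadjusted p under 0.05 or groups apart. Echs1, the enoyl-CoA hydratase of β-oxidation, had 61.4, 66.9 and 74.2 FPKM in Bmal1hep-/- muscle, against 79.8, 67.6 and 76.1 FPKM in WT muscle (-0.14 ± 0.13). Acadvl, the very long-chain acyl-CoA dehydrogenase, had 129, 147 and 155 FPKM in Bmal1hep-/- muscle, against 162, 140.1 and 174 FPKM in WT muscle (-0.14 ± 0.14, 95% interval -0.42 to 0.14). The per-library medians of this list ran from -0.083 to 0.023 in Bmal1hep-/- muscle, inside the -0.11 to 0.11 of WT muscle.

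PPAR and fasting targets had 9 positive differences of 14 and a median of 0.024, with 0 at an unadjusted p under 0.05. Pdk4, the kinase that shuts off pyruvate dehydrogenase in fasting, had 117, 129 and 92.3 FPKM in Bmal1hep-/- muscle, against 75.98, 80.6 and 135 FPKM in WT muscle. WT replicate 3 had the highest value and WT replicates 1 and 2 the lowest, so the groups overlapped and the difference was 0.25 ± 0.37 (95% interval -0.52 to 1.02). At ZT4 and ZT12 the Pdk4 differences were -1.11 and -0.56, and ZT8 differed from the mean of the other times by 0.86 ± 0.41 (adjusted p = 0.99999). Acot2, a mitochondrial thioesterase, had a difference of -0.27 ± 0.17, and Lpl, the lipase that takes up circulating triglyceride, had 129, 65.5 and 118 FPKM in Bmal1hep-/- muscle, against 112, 58.9 and 101 FPKM in WT muscle (0.20 ± 0.26).

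Lipid droplet genes had 10 negative differences of 14, a median of -0.11 and 4 genes lower without overlap, where 54% of all tested genes were negative and 4.13% were lower without overlap, and 0 at an unadjusted p under 0.05. Plin3 had 13.9, 14.7 and 15.96 FPKM in Bmal1hep-/- muscle, against 17.1, 16.1 and 20.3 FPKM in WT muscle (-0.24 ± 0.14) and Plin4 had 33.4, 41.6 and 38.5 FPKM in Bmal1hep-/- muscle, against 42.1, 46.2 and 42.1 FPKM in WT muscle (-0.20 ± 0.16), both coat proteins of lipid droplets. The median was -0.025 without Bmal1hep-/- replicate 2 and -0.063 without WT replicate 1. Cidec, which enlarges droplets in adipocytes and is on the adipocyte list too, had 0.638, 0.789 and 3.62 FPKM in Bmal1hep-/- muscle, against 6.38, 3.93 and 3.62 FPKM in WT muscle (-1.21 ± 0.78), beside adipocyte markers that were lower in the same libraries. The part of fat cells in these values was not tested.

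Cholesterol synthesis and SREBP2 targets were the list with the largest share of positive differences among those with at least 20 tested genes, 18 of 22 (46% of all genes), with a median of 0.080. Insig1, which holds SREBP in the endoplasmic reticulum and is itself an SREBP target, was the only member with an unadjusted p under 0.05. Over all tested genes 0.914% were higher at that threshold. Insig1 had 12.2, 9.06 and 10.02 FPKM in Bmal1hep-/- muscle, against 7.37, 8.18 and 7.25 FPKM in WT muscle, without overlap, and a difference of 0.40 ± 0.15 (95% interval 0.091 to 0.72). Its difference was 0.56 at ZT4 and 0.031 at ZT12. Sqle, the squalene epoxidase, had 1.13, 0.5497 and 1.39 FPKM in Bmal1hep-/- muscle, against 0.776, 0.702 and 0.503 FPKM in WT muscle (0.27 ± 0.20). The highest per-library median of the list was 0.211 in Bmal1hep-/- replicate 1, while replicate 2 had -0.081, close to the -0.085 of WT replicate 2. The median difference was 0.023 without Bmal1hep-/- replicate 1 and 0.15 without Bmal1hep-/- replicate 2.

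In the TCA cycle 14 of 20 genes had negative differences, where 54% of all tested genes did, and 0 had an unadjusted p under 0.05. The median was -0.066, with 0.0075 without Bmal1hep-/- replicate 2 and -0.11 without Bmal1hep-/- replicate 1. Suclg2, of succinyl-CoA ligase, had a difference of -0.16 ± 0.11. Branched-chain amino acid catabolism had 15 of 18 negative differences and a median of -0.062. Its median was -0.025 without Bmal1hep-/- replicate 2 and -0.16 without Bmal1hep-/- replicate 1. Ivd, the isovaleryl-CoA dehydrogenase of leucine breakdown, had 66.7, 63.8 and 65.1 FPKM in Bmal1hep-/- muscle, against 74.9, 76.9 and 79.4 FPKM in WT muscle. It was the member with an unadjusted p under 0.05 (-0.24 ± 0.090), with 0.026 at ZT4 and -0.21 at ZT12. Over all tested genes 2.17% were lower at that threshold. Mccc1, of the next step of leucine breakdown, differed by -0.16 ± 0.10.

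Glucose metabolism had medians near 0. Glycolysis had a median of -0.012 with 0 of 21 at an unadjusted p under 0.05, and insulin signalling and glucose uptake had -0.037 with 0 of 17. Pfkfb2, which makes the activator fructose 2,6-bisphosphate, differed by 0.15 ± 0.11, and Foxo1, the transcription factor that insulin restrains, by 0.24 ± 0.13. Pgm1, on the glycogen list, had 1.504, 1.38 and 1.599 FPKM in Bmal1hep-/- muscle, against 0.823, 0.852 and 0.986 FPKM in WT muscle, without overlap (0.40 ± 0.15), at levels near the filter.

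Protein turnover and stress lists held a few separated genes. Of 22 atrophy and FOXO target genes 15 had negative differences, where 54% of all tested genes did. Ctsl and Cat had an unadjusted p under 0.05, where 2.17% of all tested genes were lower at that threshold. Ctsl, the lysosomal protease cathepsin L, had 43.8, 44.5 and 46.4 FPKM in Bmal1hep-/- muscle, against 55.4, 52.04 and 55.6 FPKM in WT muscle, with a difference of -0.27 ± 0.085 (95% interval -0.44 to -0.096), and the ZT8 difference minus the mean of the other times was -0.26 ± 0.093. Cat, catalase of the peroxisome, had 37.2, 36.6 and 37.3 FPKM in Bmal1hep-/- muscle, against 44.8, 40.97 and 47.7 FPKM in WT muscle (-0.26 ± 0.11). Klf15, a glucocorticoid-induced regulator of amino acid use, had 12.7, 17.1 and 16.8 FPKM in Bmal1hep-/- muscle, against 19.4, 20.4 and 17.6 FPKM in WT muscle, again without overlap (-0.29 ± 0.15). Glucocorticoid targets as a list stood near 0, with 10 of 19 positive, a median of 0.037 and 0 at an unadjusted p under 0.05. Cdkn1a, which encodes the cell cycle inhibitor p21, had 6.11, 8.02 and 9.17 FPKM in Bmal1hep-/- muscle, against 5.16, 5.12 and 5.92 FPKM in WT muscle, without overlap (0.44 ± 0.24). Fkbp5, a classical target, had 5.94, 8.47 and 9.01 FPKM in Bmal1hep-/- muscle and 7.61, 4.84 and 5.78 FPKM in WT muscle.

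Endoplasmic reticulum chaperones had 9 of 14 negative differences and 2 lower at an unadjusted p under 0.05, where 54% of all tested genes were negative and 2.17% were lower at that threshold. Calr, the calcium-binding chaperone calreticulin, had 63.9, 63.4 and 60.99 FPKM in Bmal1hep-/- muscle, against 67.5, 74.5 and 74.6 FPKM in WT muscle (-0.20 ± 0.083), and Pdia4, a protein disulfide isomerase, had 3.52, 3.28 and 4.21 FPKM in Bmal1hep-/- muscle, against 4.33, 5.001 and 5.34 FPKM in WT muscle (-0.34 ± 0.15). Neither overlapped between genotypes. The proteasome had a median of 0.00089, and 1 of its 37 tested genes had an unadjusted p under 0.05. This was Psmb2, a subunit of its catalytic core, with 146, 131 and 139 FPKM in Bmal1hep-/- muscle, against 113, 118 and 117 FPKM in WT muscle (0.25 ± 0.10). Among translation initiation factors 23 of 35 had negative differences, where 54% of all tested genes did. Eif4b was the 1 with an unadjusted p under 0.05, lower by value (-0.20 ± 0.086). Mief2, an adaptor of mitochondrial fission, was the 1 of 15 genes of its list at that threshold (-0.27 ± 0.13). Stat2, of the interferon response, was the 1 of 24, with 2.42, 2.48 and 2.26 FPKM in Bmal1hep-/- muscle, against 1.66, 1.84 and 1.495 FPKM in WT muscle (0.35 ± 0.14). Over all tested genes 0.914% were higher and 2.17% lower at that threshold.

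Cold-inducible RNA-binding genes were all lower by value, with 0 of 3 at an unadjusted p under 0.05. Their levels follow the daily cycle of body temperature. Rbm3 had 109, 80.3 and 66.4 FPKM in Bmal1hep-/- muscle, against 110.4, 97.7 and 90.9 FPKM in WT muscle (-0.25 ± 0.15), Cirbp had 37.2, 52.2 and 36.3 FPKM in Bmal1hep-/- muscle, against 51.9, 48.9 and 42.4 FPKM in WT muscle (-0.20 ± 0.16) and Srsf5 had 62.8, 70.3 and 61.1 FPKM in Bmal1hep-/- muscle, against 78.3, 76.98 and 78.8 FPKM in WT muscle (-0.27 ± 0.15). Srsf5 did not overlap between genotypes, and the others did.

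Slow fibre contractile genes had 11 of 14 positive differences, where 46% of all tested genes were positive. Their median was 0.22, with a spread between libraries that was larger than it. Per library the median was 0.064, 0.17 and 0.023 in Bmal1hep-/- muscle and -0.30, -0.37 and 0.55 in WT muscle, so WT replicate 3 was the highest and WT replicates 1 and 2 the lowest. Without WT replicate 3 the median difference was 0.46, and without WT replicate 1 it was 0.021. Casq2, the slow calsequestrin, had 11.1, 7.92 and 12.7 FPKM in Bmal1hep-/- muscle, against 7.33, 7.09 and 10.6 FPKM in WT muscle (0.31 ± 0.19), and Tpm3, the slow tropomyosin, had 95.8, 87.1 and 69.1 FPKM in Bmal1hep-/- muscle, against 46.8, 61.2 and 112 FPKM in WT muscle (0.28 ± 0.48). Fibre composition varies within gastrocnemius, and in bulk muscle fewer cells of a type and less RNA per cell cannot be told apart. Fast fibre genes had a median of -0.054.

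Genes of other organs held many of the largest differences. An absolute difference of at least 1 was found in 59 genes, 49 of them lower in Bmal1hep-/- muscle, and 33 of the 59 had an unadjusted p under 0.05. Of these 33, 5 were on the hepatocyte list and 15 on a list of pancreatic acinar genes, which was drawn up after the values were seen. Of all 59, 8 were on the hepatocyte list and 18 on the pancreatic list, all of them lower in Bmal1hep-/- muscle. All 18 pancreatic and 3 of the 8 hepatocyte genes passed the filter on mean level only through 1 WT library. Neither the 49 nor the 33 is therefore a count of genotype differences. The 17 hepatocyte markers summed to 18.04, 10.2 and 23.9 FPKM in Bmal1hep-/- muscle and 47.7, 34.5 and 401 FPKM in WT muscle. WT replicate 3 stood far above the rest, and the other WT libraries were still above all Bmal1hep-/- libraries. At the other 5 times the sum ran from 14.8 to 171 FPKM in Bmal1hep-/- libraries (median 32.04, 15 libraries) and from 15.3 to 98.4 FPKM in WT libraries (median 31.6, 15 libraries).

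Only 8 of the 17 hepatocyte markers were tested, and 3 of these (among them Apoa1 and Mup3) were above the filter on mean level only through WT replicate 3, so their number is no count of genotype differences. The median difference of the 8 was -1.92. Alb, which encodes albumin, had 0.742, 0 and 0 FPKM in Bmal1hep-/- muscle, against 2.904, 2.496 and 30.2 FPKM in WT muscle (-2.64 ± 0.65). Apoa1, of high-density lipoprotein, had 0.412, 0.446 and 0 FPKM in Bmal1hep-/- muscle, against 0.863, 1.13 and 38.9 FPKM in WT muscle (-2.09 ± 0.67), and Apoc1 had 2.57, 2.495 and 2.32 FPKM in Bmal1hep-/- muscle, against 6.12, 5.95 and 102 FPKM in WT muscle (-2.31 ± 0.92). Apoa2 had 2.54, 0 and 0 FPKM in Bmal1hep-/- muscle, against 1.597, 4.31 and 119 FPKM in WT muscle. Mup3 and Mup7, of the major urinary protein family whose copies are nearly alike, differed by -2.15 and -1.98. Leaving out WT replicate 3, the differences were -0.78 for Mup3, -0.36 for Mup7 and -1.02 for Apoc1. Apoc1 and Mup7 are not among the 17 markers. Without WT replicate 3 the median of the list was -0.92.

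Genes of pancreatic digestive enzymes stood at high levels in WT replicate 2 and near 0 in the other 5 libraries. The 23 genes summed to 0.207, 7.76 and 0.167 FPKM in Bmal1hep-/- muscle and 0.301, 4427 and 0.5495 FPKM in WT muscle. Ctrb1, which encodes chymotrypsinogen B, had 0, 0.934 and 0 FPKM in Bmal1hep-/- muscle, against 0, 1030.4 and 0 FPKM in WT muscle. Prss2, a trypsinogen, had 0, 0.285 and 0 FPKM in Bmal1hep-/- muscle, against 0, 345 and 0 FPKM in WT muscle, and Cela1, an elastase, had 0.0917, 0.478 and 0.0714 FPKM in Bmal1hep-/- muscle, against 0.0923, 257 and 0.262 FPKM in WT muscle. Ctrl, a chymotrypsin-like protease, had 0.116, 0.132 and 0 FPKM in Bmal1hep-/- muscle, against 0, 183 and 0.119 FPKM in WT muscle. Over the other 5 times the sum reached 1.62 FPKM in Bmal1hep-/- libraries and 127 FPKM in WT libraries, with medians of 0.295 and 0.220. All 18 tested genes passed the filter on mean level only through this library, so their number is no count of genotype differences. Without WT replicate 2 the difference of Ctrb1 was 0.32.

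**Figure D5:**
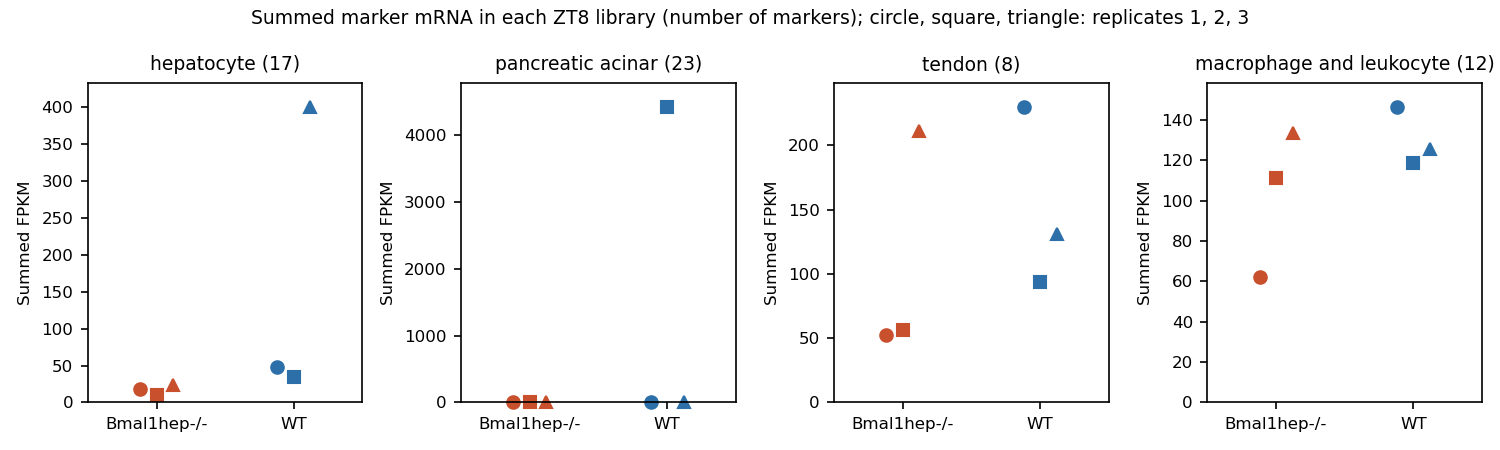
Summed FPKM of hepatocyte, pancreatic acinar, tendon, and macrophage and leukocyte markers in each library at ZT8, Bmal1hep-/- (red) left of WT (blue), with circle, square and triangle for replicates 1, 2 and 3. WT replicate 3 stands alone for hepatocyte markers at 401 FPKM and WT replicate 2 for pancreatic markers at 4427 FPKM.

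Adipocyte markers were lower by value in Bmal1hep-/- muscle for 8 of 10 genes (54% of all tested genes), with a median of -0.81 and 0 at an unadjusted p under 0.05. Their sums, which follow the members of highest level, overlapped, at 1950, 2156 and 2243 FPKM in Bmal1hep-/- muscle and 1828, 2129 and 2405 FPKM in WT muscle. The medians did not follow the sums. As deviations from the mean of the 6 libraries, they were -0.59, -0.59 and 0.0045 in Bmal1hep-/- muscle and 0.91, 0.39 and 0.095 in WT muscle. Adipoq, which encodes adiponectin, had 2.94, 1.898 and 5.46 FPKM in Bmal1hep-/- muscle, against 12.1, 8.85 and 5.89 FPKM in WT muscle (-1.20 ± 0.83, 95% interval -2.90 to 0.51), and Pck1, the gene of glyceroneogenesis in fat cells, had 0.629, 0.532 and 0.352 FPKM in Bmal1hep-/- muscle, against 3.51, 2.13 and 3.92 FPKM in WT muscle (-1.45 ± 0.79). Neither overlapped, but the spread of these genes over all 36 libraries left wide intervals. The median was 0.85 at ZT4 and 0.34 at ZT12, opposite in sign to ZT8, and at ZT8 it was -1.22 without WT replicate 3. Tendon markers summed to 52.4, 56.6 and 211 FPKM in Bmal1hep-/- muscle and 230.1, 93.6 and 131 FPKM in WT muscle, with Bmal1hep-/- replicate 3 and WT replicate 1 the highest of their groups. Comp, a matrix protein, had 1.22, 1.54 and 7.66 FPKM in Bmal1hep-/- muscle, against 11.4, 3.104 and 6.67 FPKM in WT muscle. Tnmd, a marker of tendon differentiation, had 1.899, 2.396 and 11.2 FPKM in Bmal1hep-/- muscle, against 10.6, 5.52 and 6.17 FPKM in WT muscle, and Thbs4, a thrombospondin of the tendon matrix, had 16.3, 17.05 and 51.4 FPKM in Bmal1hep-/- muscle, against 53.5, 27.1 and 32.6 FPKM in WT muscle. Macrophage and leukocyte markers summed to 61.998, 111 and 133 FPKM in Bmal1hep-/- muscle and 147, 119 and 126 FPKM in WT muscle, and endothelial markers to 143, 155 and 169 FPKM and 153, 152 and 172 FPKM in the same order.

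Collagen and matrix genes had a median of 0.013, near that of all genes, over libraries that lay far apart. Per library the median was -0.48, -0.099 and 0.51 in Bmal1hep-/- muscle and 0.0054, -0.028 and 0.055 in WT muscle. Without Bmal1hep-/- replicate 1 the median difference was 0.27, and without Bmal1hep-/- replicate 3 it was -0.30. Col1a1, chosen after its values were seen, had 19.7, 37.6 and 119 FPKM in Bmal1hep-/- muscle, against 43.6, 32.7 and 42.1 FPKM in WT muscle. Bmal1hep-/- replicates 1 and 3 were the lowest and the highest of the 6. Within each genotype the order was that of the summed tendon markers, whose highest value of the 6 was in WT replicate 1. The part of tendon in this was not tested.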

How the data were processed

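Polyadenylated RNA of gastrocnemius muscle was measured by RNA-seq in 36 libraries, 12 groups of 3. The authors deposited a table of FPKM values per gene symbol, already normalised to transcript length and mapped reads; the tool and annotation behind FPKM are not named. FastQC 0.11.8, STAR, mm10 and GRCm39 appear in the submitters' processing notes, without their roles.

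Values were taken as log2(FPKM + 1), and symbols whose mean over the 36 libraries was below 1 FPKM were left out. limma (version 3.58.1, with trend and robust options) was fitted on 12 group means, with 24 residual degrees of freedom, with Benjamini-Hochberg adjustment of the p-values of 10837 genes. The fit was tested on simulated data. Since the depth in reads is unknown, no counting interval is given. Transcript lengths were from GENCODE and were found for 96.6% of tested genes.

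Genes named are the core clock, the 12 higher and 12 lower genes of smallest p, the 4 of smallest p in each list, the 6 in each direction of largest difference among groups that do not overlap with an unadjusted p under 0.05, and the 10 of smallest p against the other times. Predicted genes are not named, and some genes that the rule picks are not reported here. Members, lists and tests were chosen with earlier results of these data known. The pancreatic list, Oaz1-ps, Col1a1, Ctrb1, Prss2 and Cela1 were chosen after their values were seen. Alternatives covered pseudocount, filter, scaling, samples in the fit, library weights, a replicate block, a length trend and left-out libraries; leaving out Bmal1hep-/- replicates 1 and 2, or WT replicates 2 and 3, was added after seeing the data.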

Additional observations from a re-analysis of the deposited data

How the results depend on the processing

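limma called 0 genes between Bmal1hep-/- and WT muscle at ZT8 with a pseudocount of 0.1, a minimum of 5 FPKM, median-of-ratios or quantile scaling, the 6 ZT8 libraries alone, no trend or robust fit, a trend on transcript length removed, or any 1 library left out (0 to 0). Without a filter on level it called 2 genes, Igsf5 (-0.13) and Olfr55 (0.34), both below 0.5 FPKM in every ZT8 library, and 2 in the test against the other times. With weights per library it called 2098 genes, and 1783 in the test against the other times, but the weight estimation did not converge and gave Bmal1hep-/- replicate 3 a weight of 41.1. Leaving out Bmal1hep-/- replicates 1 and 2, chosen after seeing the data and assuming that the lone library varies like the other groups, it called 1 gene, Tmem59 (-1.06), and leaving out WT replicates 2 and 3, also chosen after seeing the data, it called 0. Without Bmal1hep-/- replicate 2, 1119 genes had an unadjusted p under 0.05, against 334 with it, and the smallest adjusted p was 0.124.

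The replicate numbers gave correlations of 0.178, 0.140 and 0.022 between deviations of same-numbered libraries of the 2 genotypes. Between libraries of different numbers they ran from -0.317 to 0.200. What a shared number stands for is not stated in the labels and was not tested. With a replicate block limma called 0 genes at ZT8 (341 at an unadjusted p under 0.05) and 0 in the test against the other times, and Bmal1hep-/- replicate 3 correlated best with WT replicate 1.

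Of 118 genes followed, 91 kept the sign of their difference under every setting run, and 60 of 2211 values had the other sign. The cause was not tested, beyond the fewer libraries of some settings. The differences that turned were 0.0015 for Cry1 with median-of-ratios scaling, and 0.0025 for Cry1 and 0.0021 for Rora with quantile scaling. With library weights they were 0.26 for Bhlhe40, 0.30 for Comp, 0.0041 for Echs1, -0.22 for Nfil3, -0.072 for Pdk4, 0.54 for Thbs4, 0.62 for Tnmd and -0.068 for Tpm3. Leaving out Bmal1hep-/- replicates 1 and 2 they were 0.28 for Bhlhe40, 0.25 for Comp, -0.21 for Nfil3, -0.022 for Pdk4, 0.49 for Thbs4 and 0.58 for Tnmd. Leaving out WT replicates 2 and 3 they were 0.048 for Bhlhe40, 0.14 for Cela1, 0.082 for Ciart, -0.010 for Clock, 0.32 for Ctrb1, 0.11 for Ctrl, -0.17 for Hlf, -0.16 for Lpl and 0.12 for Prss2. Leaving out Bmal1hep-/- replicate 2 with WT replicate 3 gave 0.0062 for Suclg2. Over settings that leave out 1 library, or Bmal1hep-/- replicate 2 with WT replicate 3, the difference ran from -1.96 to 0.067 for Atp5k, -0.19 to 0.14 for Bhlhe40, -3.96 to 0.032 for Cela1, -0.23 to 0.068 for Ciart, -0.046 to 0.37 for Clock, -0.51 to 0.76 for Col1a1, -1.20 to 0.19 for Cox8b, -0.087 to 0.052 for Cry1, -5.01 to 0.32 for Ctrb1, -3.73 to 0.031 for Ctrl, -0.49 to 0.071 for Dbp, -0.14 to 0.22 for Hlf, -0.083 to 0.60 for Lpl, -0.068 to 0.16 for Nfil3, -0.089 to 0.18 for Nr1d2, -0.33 to 0.16 for Per1, -0.13 to 0.027 for Per2, -4.22 to 0.12 for Prss2, -0.31 to 0.21 for Rora, -0.30 to 0.0062 for Suclg2 and -1.10 to 0.070 for Uqcr11. The depth in reads is unknown, so the counting error of single values could not be given.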
